A study of Mus musculus with 3 samples.

Results

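Gene desert regions were taken here as the accessible regions whose highest point, the summit, lay outside every protein-coding gene and more than 200 kb from the nearest end of any of them. The rule was applied to the deposited region lists of an assay for transposase-accessible chromatin (ATAC-seq) on chromosomes 1 to 19 and X, with 21631 protein-coding genes of the mouse GRCm38.p6 annotation. It found 17046 of 505332 listed regions, with 6982, 6818 and 3246 in the lists of 0, 6 and 72 h. Among the listed regions, members were chosen by position alone. Being listed still required signal that passed the authors' peak caller in that library. The members nearest the limit lay 200.015, 200.031 and 200.081 kb from a gene at 0, 6 and 72 h, and the nearest regions outside it 199.941, 199.955 and 199.89 kb.

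The libraries came from ECOMG, a mouse myeloid progenitor line of the genotype FKBP12F36V_NIPBL, in which NIPBL, the protein that loads cohesin onto chromatin, carries a tag that the small molecule dTAG targets for degradation. One library had no dTAG and was labelled 0 h, and 2 libraries had dTAG for 6 h and 72 h. All 3 were grown with GM-CSF and labelled with estradiol, and all carry the tagged NIPBL. There was 1 library per group and no library without dTAG at 6 or 72 h, so dTAG, time in culture and library cannot be told apart, and no test across samples was possible. NIPBL protein was not measured in these files.

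Gene deserts are long stretches between protein-coding genes. Many flank genes for developmental regulators or cell adhesion proteins, and they can hold enhancers that act on a gene far along the chromosome. Cohesin extrudes chromatin into loops that bring such distant elements near promoters, and CTCF is the protein at which many loops stop. Long noncoding RNA (lncRNA) genes are not protein-coding, so their promoters can lie inside a desert as defined here.

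Those promoters are the members whose sequence can be shown with a known start site. RefSeq windows from 250 bases before to 50 after each gene start (GRCm38.p6) gave 1050 lncRNA windows inside the deserts, of which 46 windows of 44 genes were overlapped by a member in at least 1 list. At 0, 6 and 72 h a member overlapped 37, 37 and 23 of them. Overlap of promoter windows outside the deserts was not counted, so these numbers have no comparison. The 5 overlapped windows shown here are those of Gm26901, Firre, Gm36503, Gm38397 and Gm46220. Gm26901 and Firre were the highest at 0 h. Gm36503 tied with Gm35827 for the lowest listed fold at 72 h and had the higher fold of the pair at 0 h. Gm38397 and Gm46220 had the highest 0 h folds of the 8 overlapped windows that hold a PU.1 word. Gm26901 lies on the minus strand of chr1:7398047-7398346, Firre on the minus strand of chrX:50635272-50635571, Gm36503 on the plus strand of chr6:16550083-16550382, Gm38397 on the plus strand of chr13:110903249-110903548 and Gm46220 on the plus strand of chr10:38059091-38059390. Sequences run 5′ to 3′ along the gene, and capitals mark matches on either strand to the PU.1 word GAGGAAGT or the GATA word AGATAA. The first 3 sequences have no capitals because none of the 6 words searched was found in them.
Gm26901: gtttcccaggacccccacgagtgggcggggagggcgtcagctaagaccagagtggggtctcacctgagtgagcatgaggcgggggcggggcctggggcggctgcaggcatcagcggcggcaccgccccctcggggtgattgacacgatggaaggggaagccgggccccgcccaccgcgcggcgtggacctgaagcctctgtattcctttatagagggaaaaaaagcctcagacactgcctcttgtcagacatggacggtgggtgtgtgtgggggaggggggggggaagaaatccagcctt
Firre: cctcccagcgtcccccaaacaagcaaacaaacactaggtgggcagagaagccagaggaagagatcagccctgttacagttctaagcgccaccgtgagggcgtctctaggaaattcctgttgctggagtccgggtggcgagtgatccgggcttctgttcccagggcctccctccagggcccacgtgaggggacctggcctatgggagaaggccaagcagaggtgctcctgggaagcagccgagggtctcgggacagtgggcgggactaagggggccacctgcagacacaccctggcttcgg
Gm36503: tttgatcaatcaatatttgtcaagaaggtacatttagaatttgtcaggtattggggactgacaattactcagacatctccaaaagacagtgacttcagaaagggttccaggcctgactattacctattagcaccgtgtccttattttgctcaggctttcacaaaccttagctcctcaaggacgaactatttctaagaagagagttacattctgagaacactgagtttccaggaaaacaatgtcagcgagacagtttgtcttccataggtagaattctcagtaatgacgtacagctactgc
Gm38397: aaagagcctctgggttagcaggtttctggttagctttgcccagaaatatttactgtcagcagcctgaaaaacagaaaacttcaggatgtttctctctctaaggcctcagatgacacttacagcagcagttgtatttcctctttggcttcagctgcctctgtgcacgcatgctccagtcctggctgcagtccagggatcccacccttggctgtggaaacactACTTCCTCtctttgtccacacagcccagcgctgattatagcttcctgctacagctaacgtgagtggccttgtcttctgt
Gm46220: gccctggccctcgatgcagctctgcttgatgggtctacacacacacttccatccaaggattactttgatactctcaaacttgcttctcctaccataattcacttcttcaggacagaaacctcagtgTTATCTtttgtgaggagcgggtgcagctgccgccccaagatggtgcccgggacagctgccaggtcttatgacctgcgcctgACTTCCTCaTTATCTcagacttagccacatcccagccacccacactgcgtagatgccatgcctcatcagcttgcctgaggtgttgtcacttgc

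Values at these promoters are the fold enrichment that the authors' peak caller gave the overlapping region, a height over background within its own list. Regions outside the deserts had median folds of 6.80, 7.54 and 9.37 in the 0, 6 and 72 h lists, so folds of different lists are given side by side and not read as change. The Gm26901 promoter had folds of 114.9, 144 and 183 at 0, 6 and 72 h, the highest of the 46 windows in every list. The promoter of Firre, an X-linked lncRNA known for its part in nuclear organisation, had 64.3 at 0 h, 76.1 at 6 h and 35.9 at 72 h. Gm36503 had 44.6, 50.5 and 3.12 at 0, 6 and 72 h, the last being the lowest fold of that list. Gm38397 had 40.8, 38.4 and 47.6 at 0, 6 and 72 h, and Gm46220 12.1, 20.3 and 26.5. The other windows with a PU.1 word listed at both 0 h and 72 h were Gm38838, Gm6634 and Gm46343. Their folds at 0 h and 72 h were 10.6 and 5.46, 6.80 and 3.90, and 5.29 and 10.9. Of the 22 overlapped windows listed at both 0 h and 72 h, 15 had a lower fold at 72 h, so the windows shown do not represent them.

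The 46 overlapped windows had a median GC content of 47.8%, against 43.7% in the 1004 other desert windows and 53.0% in all 32619 promoter windows. Some windows overlap each other, so motif words were counted over 43 stretches, with overlapping windows taken as 1, a choice made after the data were seen. GAGGAAGT, a core bound by PU.1, an ETS factor of myeloid cells, was present in 8 of the 43 (18.6%, exact 95% interval 8.39 to 33.4), in 2.59% of the other desert windows and in 3.22% of all windows. Regions covered 6, 7 and 5 of these 8 windows at 0, 6 and 72 h. TGANTCA (AP-1) was present in 8 (18.6%, against 10.6% of other desert windows and 7.85% of all), the GATA word in 11 (25.6%, against 18% and 11.2%) and TGTGGT (RUNX) in 8 (18.6%, against 18.9% and 16.6%). TTGCNNAA (C/EBP) was present in 3 (6.98%, against 14.4% and 10.9%) and the CTCF word in 1 (2.33%, against 0.398% and 2.23%), the window of 4930471G24Rik. Words were counted on both strands, the words may overlap each other, and a match is only a match of letters. The intervals of PU.1, AP-1 and GATA in the overlapped windows lay above their shares in all windows, and those of RUNX, C/EBP and CTCF held them. Against the other desert windows, of the 6 words only the PU.1 interval lay wholly above the share. Windows that hold copies of a similar sequence at different places were still counted separately. Gm46220 and 1190028D05Rik share a stretch of letters around the PU.1 word, and so do Gm38838 and Gm40997. These matches are not independent, so the PU.1 interval is too narrow, and the comparison windows were not merged. Whether the PU.1 difference remains with such copies counted once was not tested.

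The lists held 182233, 178055 and 145044 regions at 0, 6 and 72 h, of which 182187, 178007 and 145021 were on the chromosomes used. As a check of the label, regions overlapped the promoters of 8, 8 and 7 of 9 myeloid genes at 0, 6 and 72 h, among them Cebpa, Itgam, Ptprc, Elane and Ctsg, and of 0 of 7 genes of other cell types such as Cd3e, Gata1 and Alb in each list. Mpo, the myeloperoxidase gene, had no region over its promoter window in any list, and Prtn3, the proteinase 3 gene, had none at 72 h. The folds at 0, 6 and 72 h were 20.4, 16.6 and 6.25 at Elane and 19.7, 14.3 and 3.90 at Ctsg, both granule protease genes, and 128.5, 141 and 176 at Cebpa and 34.0, 50.5 and 62.5 at Itgam. Read depth was not given. All folds lay on a grid of steps of 0.756 at 0 h, 0.754 at 6 h and 0.781 at 72 h, within 0.01 of a step. If the fold is the number of fragments plus 1 over the background plus 1, the background at 72 h was 0.87 times that at 0 h, and at 6 h 1.01 times.

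Gene desert regions made up 3.83% of the list at 0 h (exact 95% interval 3.74 to 3.92), 3.83% at 6 h and 2.24% at 72 h (2.16 to 2.32). Intervals cover counting error only. The members covered 0.866, 0.879 and 0.511 Mb at 0, 6 and 72 h. Between neighbouring genes on the same chromosome, 516 Mb lay more than 200 kb from a gene, and this territory held 13.2 regions per Mb at 0 h, 12.9 at 6 h and 6.12 at 72 h. Intergenic sequence within 200 kb of a gene held 75, 72.7 and 56.8 regions per Mb at those times, and sequence inside genes 93.3, 91.6 and 79.5. The 72 h density was thus 6.12 against 13.2 regions per Mb at 0 h in deserts and 79.5 against 93.3 inside genes. Distances to the nearest coding gene had medians of 381, 397 and 368 kb and reached 2198, 2252 and 2200.1 kb at 0, 6 and 72 h.

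Members were shorter and lower than other regions in each list. Their median length was 98, 102 and 125 bp at 0, 6 and 72 h, against 131, 137 and 154 bp for the other regions. Their median fold was 5.29, 6.03 and 7.81, against 6.80, 7.54 and 9.37 for the other regions. Strong regions, those at or above the median −log10 q of their own list, were 40.9%, 37.4% and 41.1% of the members and 54.6%, 52.7% and 52.7% of the other regions. Members of fold 10 or more numbered 1637 at 0 h, 1681 at 6 h and 1243 at 72 h, while the other regions of that fold numbered 64986, 67805 and 70562.

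At 6 h most of the members of the 0 h list were still listed. Overlap by at least 1 bp was found at 6 h for 4536 of the 6982 members (65.0%, 63.8 to 66.1) and for 77.0% of the other 0 h regions. Without overlap were 2446 members (35.0%), against 23.4% of all 0 h regions. Of the 2858 strong members 146 had no region at 6 h (5.11%, against 2.48% of all strong regions), and of the 2552 strong members at 6 h 67 had none at 0 h (2.63%, against 1.71%). Among members of fold 20 or more, 682 of 682 were overlapped at 6 h. In the other direction, 33.8% of the members at 6 h had no region at 0 h, against 21.8% of all 6 h regions. Turnover at 6 h thus ran both ways and lay mainly among low members.

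At 72 h most members of the 0 h list had no region. Without overlap were 4544 of 6982 members (65.1%, 64.0 to 66.2), against 40.2% of all 0 h regions. Of the other 0 h regions 60.8% were overlapped at 72 h, and of the members 34.9%. Strong members without a region at 72 h numbered 1016 of 2858 (35.5%, 33.8 to 37.3), against 15.7% of all strong 0 h regions. Strong members at 72 h without a region at 0 h numbered 126 of 1334 (9.45%, 7.93 to 11.1), against 7.22% of all strong 72 h regions. The cutoff for strong was set in each list, so lost and gained members were filtered at unlike heights. At a minimum −log10 q of 10 in either list, 593 were lost and 169 gained. The interval of the lost share lay far above the share over all regions. The comparisons at 6 h and 72 h use the same 0 h library. Against 6 h, 4280 of 6818 members (62.8%) had no region at 72 h, where 37.2% of all 6 h regions had none, and of the 2552 strong ones 746 (29.2%), against 12.0% of all strong 6 h regions. Of the 3246 members at 72 h, 841 (25.9%) had no region at 0 h, against 22.8% of all 72 h regions, and 719 (22.2%) none at 6 h, against 20.9%. Of the 1334 strong ones 79 (5.92%) had none at 6 h, against 5.48%. The shares of new members at 72 h were closer to those of all regions than the shares of missing members were.

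Members of higher fold were more often kept. Of the members of fold 10 or more at 0 h, 306 of 1637 (18.7%) had no region at 72 h, against 5.91% of other regions of that fold. Of those of fold 20 or more, 25 of 682 (3.67%, 2.39 to 5.36) had none, against 0.971% of other regions. Gains ran the same way, with 109 of 1243 members of fold 10 or more at 72 h (8.77%) without a region at 0 h, against 6.34% of other regions.

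Since members were lower than other regions, both were compared within 5 bins of 0 h fold. At 72 h the members and the other regions were overlapped in 10.2% and 25.6% of the lowest bin, 25% and 44.9% of the second, 40.0% and 63.5% of the middle one, 69.3% and 86.9% of the fourth and 96.6% and 99.1% of the highest. Members were below the other regions in each of the 5 bins. Weighting the other regions to the members' folds gave an overlap of 51.5% for them at 72 h, against 34.9% for the members. At 6 h the weighted value of the other regions was 69.8%, against 65.0% for the members.

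**Figure D1:**
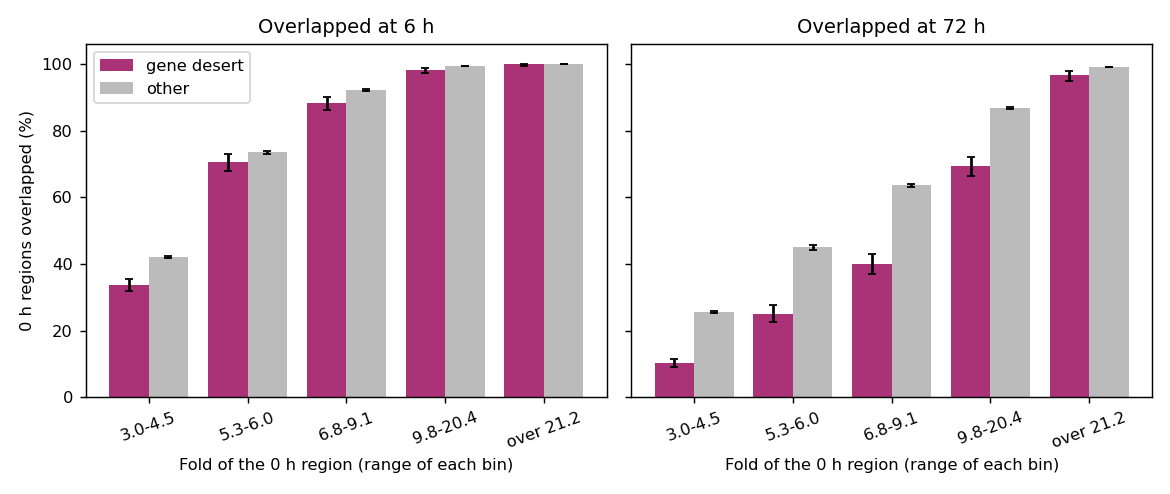
Share of 0 h regions (%) overlapped by a region at 6 h (left) and at 72 h (right), in 5 bins of their 0 h fold, for gene desert regions (purple) and other regions (grey), with exact 95% binomial intervals as error bars. At 72 h the purple bars stand below the grey ones in every bin, 10.2% against 25.6% in the lowest and 96.6% against 99.1% in the highest.

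Overlap at 72 h became lower with distance up to about 300 kb and then levelled. It was 62.3% for 0 h regions inside a gene, 65.6% within 10 kb of one, 56.6% at 10 to 50 kb, 48.4% at 50 to 100 kb and 43.9% at 100 to 200 kb. Among the members it was 37.2% at 200 to 300 kb (35.3 to 39.2), 33.7% at 300 to 500 kb, 33.8% at 500 to 1000 kb and 33.7% beyond 1000 kb (30.1 to 37.4). There was no step at the limit of 200 kb, with 40.8% at 190 to 200 kb and 41.6% at 200 to 210 kb. The fall with distance at 6 h was smaller, with 77.1% inside genes, 70.1% at 100 to 200 kb, 65.2% at 200 to 300 kb and 63.1% beyond 1000 kb. The 3 bins beyond 300 kb have intervals that overlap at both times.

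**Figure D2:**
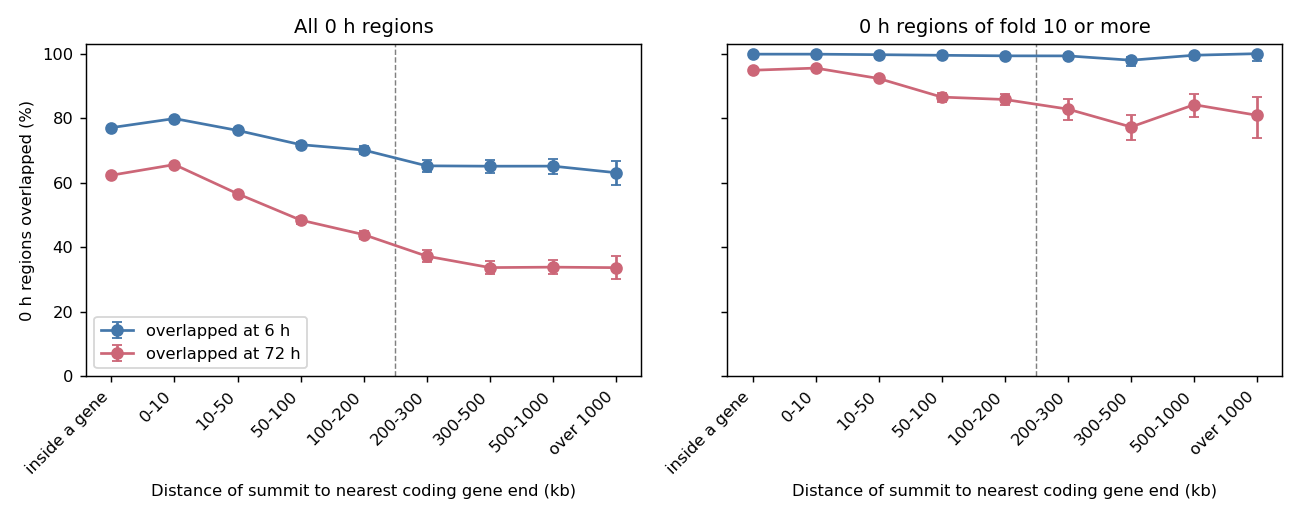
Share of 0 h regions (%) overlapped at 6 h (blue) and 72 h (red) by distance of the summit to the nearest protein-coding gene end (kb), for all regions (left) and those of fold 10 or more (right). Error bars are exact 95% binomial intervals, and the dashed line marks 200 kb. The red line falls to 33.7% at 300 to 500 kb and stays level beyond, while the blue line ends at 63.1%.

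Merging the lists gave 9767 desert loci among 237486 loci in all. Of these desert loci 22.9% were listed at all 3 times (other loci 42.1%), 22.9% at 0 h and 6 h (14.8%), 23.4% at 0 h alone (14.8%), 20.8% at 6 h alone (11.8%) and 5.80% at 72 h alone (10.2%). Desert loci listed at 6 h and 72 h were 2.72%, and at 0 h and 72 h 1.53%. Desert loci were thus more often listed at 1 of the first 2 times alone, and less often at 72 h alone, than other loci.

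Members fell into 704 deserts, the gaps between neighbouring coding genes or a chromosome end that held at least 1 of them. Of the 809 gaps longer than 400 kb between genes, 682, 662 and 510 held a member at 0, 6 and 72 h. At 72 h 614 deserts had fewer members than at 0 h (87.2%), 29 had more (4.12%) and 61 the same number, with a median difference of −3. Over all 14363 intergenic gaps with a region, 56.8% had fewer regions at 72 h and 17.1% more. At 6 h 326 deserts had fewer members and 232 more, where 35.1% of all gaps had fewer and 29.0% more. Of the 240 deserts with 10 or more members at 0 h, 230 (95.8%) had fewer at 72 h and 9 (3.75%) more. Counting the other intergenic regions by gap, 78.5% of the 2448 gaps with 10 or more at 0 h had fewer at 72 h and 15.6% more. The members at 0 h were unevenly spread, with 108 deserts holding 50% of them.

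**Figure D3:**
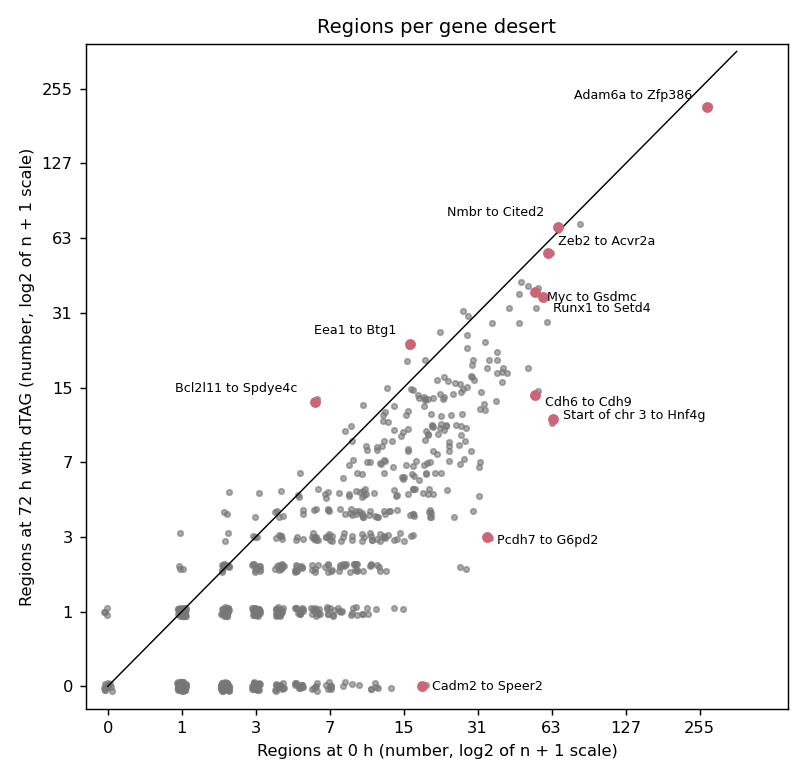
Number of gene desert regions at 72 h with dTAG (vertical) against 0 h (horizontal) in each of 704 deserts, both on a log2 scale of the number plus 1, with a small random offset of the grey points. The line marks equal numbers, red points are named deserts, and 614 deserts lie below the line and 29 above it.

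The deserts with most members at 0 h are given with their counts at 0, 6 and 72 h. Adam6a to Zfp386, which holds the immunoglobulin heavy chain locus, had 273, 261 and 216, and Gm36448 to Dad1, at the T cell receptor alpha locus, 83, 89 and 73. Nmbr to Cited2 had 67, 70 and 70, with Cited2 encoding a transcriptional co-regulator needed in blood stem cells. Zeb2 to Acvr2a, beside the gene of the repressor Zeb2, had 61, 64 and 55. Runx1 to Setd4, beside the gene of the blood transcription factor Runx1, had 58, 52 and 36, and Rps24 to Zmiz1 54, 38 and 32, tied at 0 h with Cdh6 to Cdh9 and Myc to Gsdmc. The start of chromosome 3 to Hnf4g had 64, 59 and 11, of which 61, 56 and 11 lay in the first listed 40 kb of the chromosome. Tenm3 to Aga, beside a teneurin adhesion gene, had 58, 56 and 28.

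Antigen receptor segments are not classed as protein-coding in this annotation and many are near-identical copies, so reads there could be split between copies and these values are uncertain. The 0 h members in antigen receptor loci were overlapped at 72 h in 258 of 406 cases (63.5%, 58.7 to 68.2), 66.3% at the heavy chain locus and 74.7% at the T cell receptor alpha locus. The median 0 h fold was 9.83 at the heavy chain locus and 11.3 at the T cell receptor alpha locus. Without antigen receptor loci 33.2% of the 0 h members were overlapped at 72 h.

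Other deserts with large falls in number at 72 h are named next. Cdh6 to Cdh9, between genes of type II cadherins, had 54 members at 0 h, 61 at 6 h and 14 at 72 h. Pcdh7 to G6pd2, beside a protocadherin gene, had 34, 30 and 3, Brinp3 to Pla2g4a 32, 25 and 5, and Nudt12 to Efna5, beside an ephrin gene, 30, 32 and 4. At 6 h each of these 4 still held 25 or more members. In Pcdh7 to G6pd2 the highest 0 h member, chr5:60978770-60978967, had a fold of 18.1 at 0 h, 14.3 at 6 h and no region at 72 h. In Cdh6 to Cdh9 the highest, chr15:16517267-16517452, was listed throughout, with 40.1, 45.2 and 34.3.

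In 176 of the 687 deserts with a member at 0 h no member was listed at 72 h, and 4 deserts had members at 72 h alone. The share of other intergenic gaps emptied at 72 h was not counted, so these numbers are not read as particular to deserts. The emptied deserts with most members at 0 h were Cadm2 to Speer2, beside a synaptic adhesion gene, with 18 at 0 h, 15 at 6 h and 0 at 72 h, Mki67 to Mgmt with 13, 6 and 0, and Sntb1 to Has2 with 12, 10 and 0. Slc16a7 to Lrig3 had 11, 13 and 0, and Cylc2 to Smc2, beside a condensin subunit gene, 11, 7 and 0. The highest folds there at 0 h were 12.1 in Cadm2 to Speer2, 9.07 in Mki67 to Mgmt and Sntb1 to Has2, and 19.7 in the other 2. Strong members at 0 h numbered 4 of 18 in Cadm2 to Speer2 and 7 of 11 in Cylc2 to Smc2.

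Few deserts had more members at 72 h. Bcl2l11 to Spdye4c had 6, 7 and 13 at 0, 6 and 72 h, all within Morrbid, a lncRNA of short-lived myeloid cells that is known in mice to repress the death gene Bcl2l11. Its highest member, chr2:128373935-128374471, had a fold of 46.9 at 0 h, 52.7 at 6 h and 77.3 at 72 h, and chr2:128380700-128380961 had none at 0 h, 8.29 at 6 h and 18 at 72 h. Eea1 to Btg1, beside the antiproliferative gene Btg1, had 16, 17 and 23 members at 0, 6 and 72 h, of which 8, 11 and 16 had a fold of 10 or more. All 16 of its 0 h members were overlapped at both later times. Its highest member, chr10:96273976-96274392, had a fold of 40.8, 52.0 and 137 at the 3 times, and chr10:96332764-96333592 had 59.0, 67.1 and 123. Sall1 to Tox3 had 28, 25 and 32 members, Tle3 to Rplp1 22, 22 and 25, Slco6d1 to Cntnap5b 16, 19 and 19, Tusc1 to Caap1 10, 10 and 13 and Ednrb to Pou4f1 2, 6 and 5. In Nmbr to Cited2 the members of fold 10 or more numbered 23, 22 and 34.

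Deserts were also grouped by lists of flanking genes. The 14 deserts beside 11 blood regulators held 334, 313 and 215 members at 0, 6 and 72 h, a 72 h to 0 h ratio of 0.644, and 47.6% of the 0 h members (42.1 to 53.1) were overlapped at 72 h. The 25 deserts beside developmental factors held 209, 204 and 79 (ratio 0.378), and 26.8% (20.9 to 33.3) were overlapped. The 58 deserts beside neuronal and junction adhesion genes held 1119, 1207 and 442 (ratio 0.395), and 29.3% (26.7 to 32.1) were overlapped. Over all deserts the ratio was 0.465 and the overlap 34.9%. In numbers of members at 72 h against 0 h, 12 of 14 blood deserts had fewer and 0 more, 22 of 25 developmental ones had fewer and 1 more, and 56 of 58 adhesion ones had fewer and 0 more. The order of the 3 lists was less clear among members of fold 10 or more, where 83.1% (73.3 to 90.5), 75.6% (60.5 to 87.1) and 78.5% (72.7 to 83.6) were overlapped in blood, developmental and adhesion deserts, with 81.3% over all deserts, and these intervals overlap.

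Among the blood deserts, Id2 to Rnf144a, beside the gene of a helix-loop-helix inhibitor, had 36 members at 0 h, 33 at 6 h and 28 at 72 h. Cetn3 to Mef2c had 24, 23 and 15, Bcl11a to Fancl 21, 18 and 9, and Cxcr4 to Thsd7b, beside a chemokine receptor gene, 17, 11 and 6. Dusp10 to Hlx had 15, 16 and 11 and Ets1 to Kirrel3 14, 13 and 5. Meis1 to Spred2, beside the gene of a Hoxa9 partner, had 9, 8 and 0. Among developmental deserts Nr2f1 to Arrdc3 had 36, 37 and 13 and Gm11677 to Sox9 11, 12 and 0, whereas Bmp2 to Hao1 had 18, 16 and 14. Among adhesion deserts Adgrl2 to Adgrl4 had 52, 67 and 41, Cdh8 to Cdh11 41, 45 and 17 and Slitrk5 to Gpc5 31, 41 and 7. Of the deserts named here, those of Meis1 to Spred2 and Gm11677 to Sox9 had 0 members at 72 h.

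Deserts lie on both sides of Myc, the proto-oncogene. A1bg to Myc had 19, 20 and 7 members at 0, 6 and 72 h and Myc to Gsdmc, which holds the lncRNA Pvt1, 54, 51 and 38. Of the 0 h members 7 of 19 and 21 of 54 were overlapped at 72 h. In Myc to Gsdmc 4 strong members were lost at 72 h and 7 gained. The lost ones were low, with 0 h folds of 7.56 to 15.1, and lay 754 to 1272 kb from Myc. The highest gained one, chr15:62250510-62250758, lay 260 kb from Myc inside Pvt1 and had no region at 0 h, a fold of 3.01 at 6 h and 26.5 at 72 h. Its neighbour chr15:62252078-62252689, 262 kb from Myc, had folds of 21.9, 26.4 and 148 at 0, 6 and 72 h, the last being the highest of the desert. Another Pvt1 region, chr15:62229601-62230286, had 41.6, 52.0 and 67.9, and chr15:63497250-63497583, 279 kb from Gsdmc, had 33.3, 49.0 and 62.5. The members within Pvt1 numbered 6, 6 and 10.

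In Runx1 to Setd4 33 of 58 members at 0 h were overlapped at 72 h. Its highest 72 h member, chr16:93028711-93029088, 203 kb from Runx1, had a fold of 36.3 at 0 h, 36.9 at 6 h and 116 at 72 h, and the next, at chr16:93031714-93031983, had 65.8, 61.8 and 92.9. At 376 kb from Setd4, chr16:93207169-93207605 had 7.56, 15.8 and 47.6, and close to it chr16:93211524-93211766 had none, 5.27 and 25.8. Further on, chr16:93293081-93293315 had 55.9, 40.7 and 29.7. Strong members lost at 72 h numbered 8, with 0 h folds of 6.80 to 13.6, and gained ones 2. In Rps24 to Zmiz1, beside the gene of a nuclear receptor co-activator, chr14:25208581-25209134 had 4.54, 6.78 and 57.8 and chr14:25151028-25151404 had 26.5, 36.9 and 96.0, while chr14:24778930-24779649 had 41.6, 40.7 and 22.6. In Nmbr to Cited2, chr10:17347714-17348280 had 13.6, 13.6 and 78.8 and chr10:17491504-17492171 73.3, 39.9 and 20.3.

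**Figure D4:**
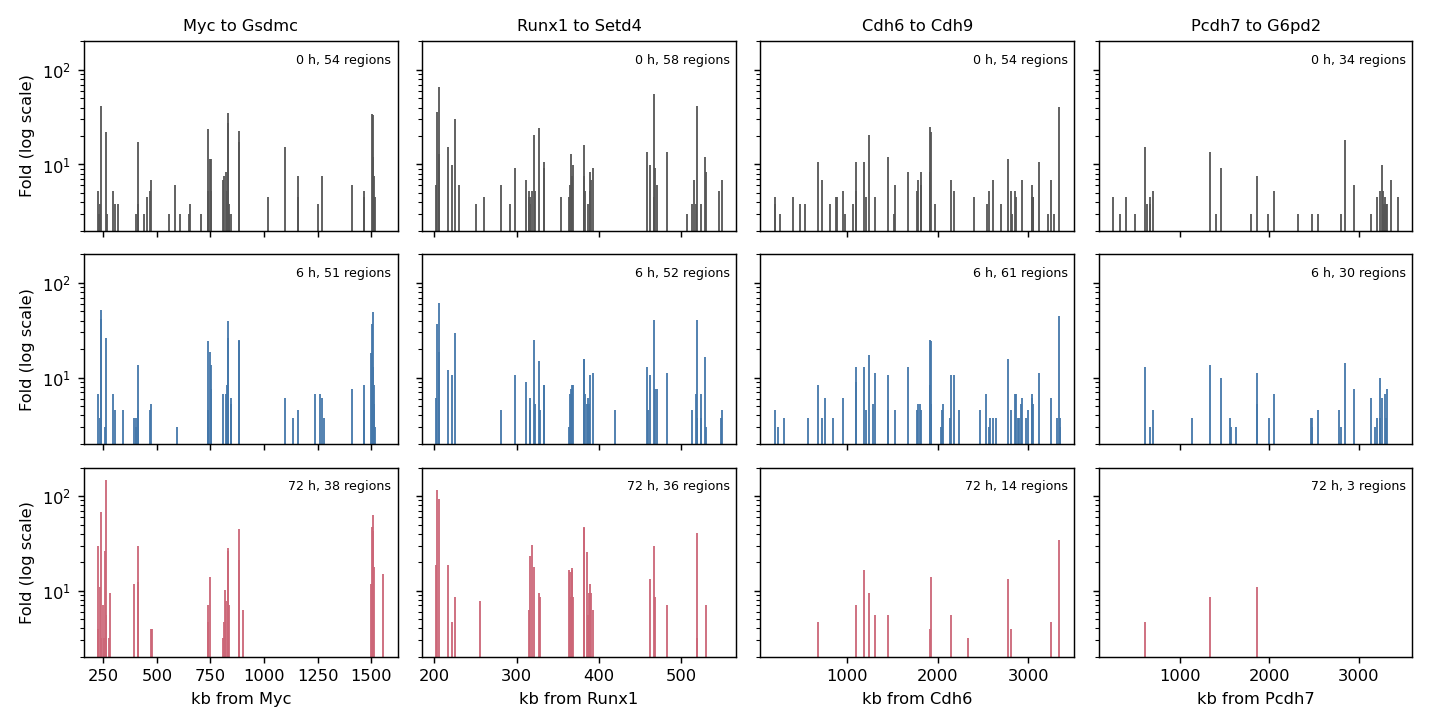
Fold of every gene desert region (vertical lines, log scale) by distance from the gene on the left (kb) in 4 deserts, for 0 h (grey), 6 h (blue) and 72 h (red). At 72 h Myc to Gsdmc has 38 regions with folds up to 148 and Runx1 to Setd4 36 with folds up to 116, while Cdh6 to Cdh9 has 14 and Pcdh7 to G6pd2 3.

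The highest regions lost and gained at 72 h lay outside these deserts for the most part. The highest lost member was chr9:61170277-61170375, nearest to Tle3, with folds of 60.5 and 76.1 at 0 and 6 h and no region at 72 h. After it came chr5:42986247-42986519 (39.3 and 15.1 at 0 h and 6 h), chr4:69703398-69703656 (38.6 and 32.4), chr12:66031727-66031932 (30.2 and 21.1) and chr17:94521991-94522191 (29.5 and 25.6), all without a region at 72 h. The highest gained member was chr12:97061591-97061787, in Flrt2 to Galc and 1141 kb from Galc, with none at 0 h, 8.29 at 6 h and 91.3 at 72 h. It was followed by chr3:149338178-149338385 near Adgrl2 (none, none and 35.9), chr3:21808283-21808819 near Tbl1xr1 (none, 3.77 and 35.1), chr1:98877679-98878008 near Slco6d1 (none, 6.03 and 33.6) and chr8:101164992-101165276, 1467 kb from Cdh11 (none, 4.52 and 33.6). Of these 5 gained members 4 had a low region at 6 h.

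A few members had extreme folds, singly or several in a short stretch. At chr2:98666237-98667327, in Lrrc4c to Iftap, the folds were 1070.4, 1114 and 903 at 0, 6 and 72 h, and 4 members lay within this 10 kb stretch at each time. A member of 60 bp at chr4:7391766-7391825, 400.2 kb from Tox, had 971, 1084 and 372, and chr3:5860339-5860822, near Pex2, 821, 735 and 303. The same 5 regions were the highest members in all 3 lists. At the start of chromosome 9 the first listed 40 kb held 46, 44 and 37 members, and at the start of chromosome 3 61, 56 and 11. Median folds at 0 h were 601 in the chromosome 2 stretch, 20.4 at the start of chromosome 9 and 7.56 at the start of chromosome 3. Leaving out the first 5 Mb of each chromosome gave an overlap of 34.7% at 72 h, against 34.9% with it.

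Overlap at 72 h varied more with the spacing of members than with the length of the gap. Of 0 h members with another region of the list within 1 kb, 56.8% were overlapped at 72 h, against 44.4% at 1 to 5 kb, 33.0% at 5 to 20 kb and 23.4% beyond 20 kb. Their median folds were 7.56, 6.05, 5.29 and 4.54, so isolated members were also lower. Among members of fold 10 or more the same order held, with 86.7%, 83.2%, 81.0% and 75.1%. By length of the gap the overlap was 34.6% under 1 Mb, 34.1% at 1 to 2 Mb, 39.1% at 2 to 3 Mb and 30.1% from 3 Mb. Of 814 members at 0 h inside a lncRNA gene 39.7% (36.3 to 43.1) were overlapped, and of 5677 outside any annotated gene 32.3% (31.1 to 33.5). Their median 0 h folds were 6.05 and 5.29, so members inside lncRNA genes were also higher. Among members of fold 10 or more the shares were 85.8% (80.0 to 90.4) and 79.1% (76.7 to 81.3), with intervals that overlap. Those in lncRNA genes numbered 814, 791 and 442 at 0, 6 and 72 h, spread over 455 genes. The 6 lncRNA genes with most at 0 h were 1700019L22Rik with 23, 18 and 15, Gm32647 with 21, 16 and 13, Gm30382 with 14, 15 and 17, Gm31870 with 12, 8 and 3, Gm36723 with 11, 11 and 14 and 5730522E02Rik with 10, 6 and 3.

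Every chromosome had fewer members at 72 h than at 0 h, and on each the ratio was below that of its other regions. The ratio was lowest on chromosomes 5 (0.302), 7 (0.335), 17 (0.365) and 6 (0.370) and highest on X (0.654), 10 (0.583), 12 (0.570) and 14 (0.559). The heavy chain locus held 273 of the 582 members on chromosome 12 at 0 h and 216 of 332 at 72 h. The T cell receptor alpha locus held 83 of 506 on chromosome 14 at 0 h and 73 of 283 at 72 h. Ratios of these chromosomes without the loci were not computed, so their ranks are not read as a trait of their other deserts. For other regions the ratio ran from 0.731 on chromosome 15 to 0.887 on X. On X 83 of 188 members (44.1%, 36.9 to 51.6) were overlapped at 72 h, against 34.7% (33.5 to 35.8) on the autosomes. Among members of fold 10 or more the shares were close, with 82.2% (67.9 to 92.0) on X and 81.3% (79.3 to 83.2) on the autosomes.

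**Figure D5:**
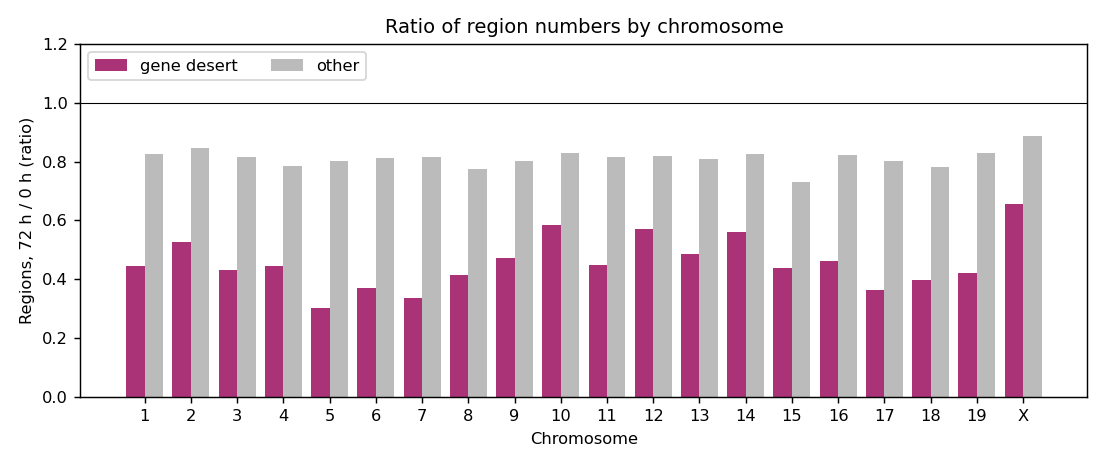
Ratio of the number of regions at 72 h to that at 0 h on each chromosome, for gene desert regions (purple) and other regions (grey). The line marks equal numbers. The purple bars run from 0.302 on chromosome 5 to 0.654 on X and the grey bars from 0.731 on chromosome 15 to 0.887 on X, and the purple bar is the lower on each chromosome.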

How the data were processed

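ATAC-seq region lists of 3 libraries were used, 1 per group, as deposited by the authors. Per the submitters' processing notes, reads were handled with BWA 0.7.17 and MACS2 2.2.7 on the mm10 build, with FastQC 0.11.8, MultiQC 1.10.1 and bedtools 2.30.0 also named. Options, duplicate handling and any shift of reads to the transposase cut site were not given in the sources used here, and a shift would move summits by a few bases. In the deposited lists the fold is a ratio to background, the significance is −log10 of a p-value or q-value, and the score is an integer form of the latter. Read totals were not used here, so depth is known only through the fold grid.

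Summits were placed against the RefSeq GRCm38.p6 gene table, which shares its coordinates with mm10. Overlap meant at least 1 bp. Shares carry exact Clopper-Pearson 95% intervals, which cover counting error only. Folds serve to describe, rank or filter within their own list. With 1 library per group no p-value was computed. The overlap code was checked on simulated intervals. The members and lists of genes were chosen with earlier results of these data known. Named deserts and regions follow ranks: the 8 with most members, the 8 largest falls and rises, the 5 highest, lost and gained regions, and deserts beside listed genes. Regions singled out within 4 deserts were chosen after their values were seen, as was the marker check. A search for motifs around summits needs a genome sequence and was not run, so promoter windows were searched instead. Some named deserts are not reported here.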

Additional observations from a re-analysis of the deposited data

How the results depend on the processing

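Members were less often overlapped than other regions at 72 h in each of 8 settings, with differences of −2.69 (minimum fold of 20) to −27.7 points, and at 6 h in 7 of 8, the exception being a minimum fold of 20. The share of members among all regions at 0, 6 and 72 h was 7.10%, 6.96% and 4.64% with a limit of 100 kb, 1.33%, 1.41% and 0.769% with 500 kb, 0.353%, 0.382% and 0.201% with genes of every biotype, 2.67%, 2.64% and 1.83% at a minimum −log10 q of 10, 2.46%, 2.42% and 1.73% at a minimum fold of 10, 4.12%, 4.11% and 2.43% after merging within 150 bp, and 3.62%, 3.62% and 2.03% without antigen receptor loci. Each setting had the smallest share at 72 h. The overlap at 6 h and at 72 h was 62.0% and 31.2% where 50% of the 0 h region had to be covered, 61.8% and 33.0% by summit, 98.1% and 73.0% at a minimum −log10 q of 10, 99.0% and 81.3% at a minimum fold of 10, 67.3% and 39.1% beyond 100 kb, and 72.9% and 45.5% with lists of equal length. At 72 h it was 33.8% beyond 500 kb, 31.3% with genes of every biotype and 33.2% without antigen receptor loci. Leaving out X or the first 5 Mb moved no overlap beyond its interval.

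Members lost and gained at 6 h numbered 42 and 44 at a minimum −log10 q of 10. They numbered 16 and 15 at a minimum fold of 10, and 0 and 1 at a minimum fold of 20. These minimums took the place of the cutoff for strong members. Strong members lost and gained at 6 h numbered 246 and 110 beyond 100 kb, 44 and 25 beyond 500 kb, and 41 and 29 with lists of equal length. The excess of losses at 6 h thus ended with the thresholds on q and fold. Members lost at 72 h in the same settings and order numbered 593, 306, 25, 1801, 324 and 465, and gained ones 169, 109, 19, 262, 43 and 154. Losses outnumbered gains in each as counts. At a minimum fold of 20 the shares were close, with 3.67% of 682 members lost and 3.28% of 579 gained. Other regions of that fold had 0.971% lost and 1.98% gained. Other regions weighted by length had an overlap of 68.4% at 6 h and 50.1% at 72 h, and by exact fold 69.4% and 51.1%. The settings without antigen receptor loci with exact folds and with fold bins within chromosomes were chosen after seeing the data. Motif searches around summits were not run. No paired analysis was possible because each group held 1 library. A locus without a listed region can hold signal below the lowest listed fold, 3.02, 3.01 and 3.12 at 0, 6 and 72 h, so low members could not be told from absent ones at this depth.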
